A study of Rattus norvegicus with 7 samples.

Results

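The comparison described here sets rat testis 20 h after cadmium against untreated rat testis. It uses every array that the labels place at 20 h (2 arrays) or leave untreated (3 arrays), which is 5 of the 7 arrays of the study. The other 2 arrays, 8 h after cadmium, entered the shared estimate of spread. They also entered the filter on low signals, the choice of 1 probe set per gene, the offset and the alternative scalings. The animals were adult male Sprague-Dawley rats, an outbred stock, with no engineered allele named. Treated rats had received cadmium chloride once, at 3 mg/kg into the peritoneum, and the untreated rats are the 0 h controls, with no vehicle injection mentioned. Total RNA from testis was labelled with biotin and hybridized to the Affymetrix Rat230_2 array, and each probe set has a signal in arbitrary units. Arrays of 1 group are biological replicates in the labels, which say no more of the animals, and n counts arrays. The instrument records give a hybridization date for each array: untreated replicate 1 and 20 h replicate 1 share day 1, untreated replicate 2 stands alone on day 2, and untreated replicate 3 and 20 h replicate 2 share day 3. A same-day difference is log2(signal + 15) on a 20 h array minus the same on its day's untreated array. Where 3 untreated signals follow each other, they are untreated replicates 1, 2 and 3 in that order, and where 2 signals at 20 h follow, they are 20 h replicates 1 and 2. Paired medians or differences have the same order, 20 h replicate 1 first.

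Cadmium is a metal that cells take up through transporters for zinc, iron and calcium. Inside the cell it is bound by metallothioneins, small cysteine-rich proteins whose genes are switched on through metal response elements by the factor Mtf1. The testis is known as one of the organs most easily injured by cadmium: its small vessels leak and close, Leydig cells lose steroid output, and the junctions between Sertoli cells that form the blood-testis barrier open. Low oxygen is read by cells through Hif1a, which binds a short core motif in genes of glycolysis, vessel growth and mitophagy.

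The 250 bases upstream of the starts of 3 genes are shown for the motifs that metal and low oxygen are known to act through, from RefSeq promoter windows on build GRCr8. All 3 genes lie on the minus strand, and each sequence reads 5′ to 3′ along its gene. Capitals in the promoters of Mt1 (chr19:10832976-10833225) and Mt2A (chr19:10838709-10838958) mark the metal response core, searched as TGCACNC or TGCGCNC on both strands.
Mt1 promoter: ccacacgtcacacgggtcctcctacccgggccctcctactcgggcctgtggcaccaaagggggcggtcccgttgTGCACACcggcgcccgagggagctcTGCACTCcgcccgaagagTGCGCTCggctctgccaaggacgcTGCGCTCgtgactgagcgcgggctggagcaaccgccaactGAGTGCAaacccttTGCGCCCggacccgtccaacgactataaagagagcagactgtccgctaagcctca
Mt2A promoter: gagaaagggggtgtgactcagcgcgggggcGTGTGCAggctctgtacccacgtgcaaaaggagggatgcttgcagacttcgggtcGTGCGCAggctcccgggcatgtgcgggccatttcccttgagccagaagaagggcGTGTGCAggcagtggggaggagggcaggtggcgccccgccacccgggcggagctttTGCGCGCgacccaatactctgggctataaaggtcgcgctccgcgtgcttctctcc
Capitals in the promoter of Bnip3 (chr1:203154963-203155212), a mitophagy receptor, mark the hypoxia core ACGTG, which matched on both strands at 1 overlapping palindrome.
Bnip3 promoter: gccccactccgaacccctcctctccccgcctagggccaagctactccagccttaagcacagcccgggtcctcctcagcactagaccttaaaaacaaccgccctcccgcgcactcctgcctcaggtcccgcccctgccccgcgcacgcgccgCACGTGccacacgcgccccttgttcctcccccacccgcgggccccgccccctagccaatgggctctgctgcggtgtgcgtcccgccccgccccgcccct
The metal core matched 6 times in the Mt1 window and 4 times in that of Mt2A. It was present in 9 of 14 promoters of the metal genes and in 20.6% of all 33469 promoters of the table. The hypoxia core was present in 13 of 30 promoters of the hypoxia and glycolysis genes and in 16.6% of all. The heat shock element was present in 3 of 13 promoters of chaperone genes and in 0.663% of all. Among 29 promoters of genes that differed the same way on both days, described further on, 10 held the metal core, 5 the hypoxia core, 0 the heat shock motif and 5 the antioxidant response core, which 10.1% of all promoters held. A match is a run of letters in this window and says nothing of binding.

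The arrays carried the transcripts of the labelled tissue. Among spermatid genes, Prm1, the protamine that packs sperm DNA, gave 20530.8, 16767.1 and 28324.4 untreated and 18075.1 and 28283.5 at 20 h. Cldn11, the claudin of the Sertoli cell barrier, gave 2714.5, 2996.9 and 3361.6 untreated and 2644.8 and 3551.1 at 20 h, and Insl3, a Leydig cell hormone, gave 1356.9, 1126.7 and 1827.8 untreated and 1185.6 and 2099.6 at 20 h. The median signal ran from 52.9 to 72 over the arrays. Actin probe sets at the 3' end exceeded those at the 5' end, a measure of RNA length, by a log2 value of 0.985 and 0.917 on the untreated and 20 h arrays of day 1 and 1.19 and 1.36 on those of day 3. Untreated replicate 2 had a longer and cooler staining step than the others (600 s at 25 °C against 300 s at 35 °C), and its instrument record names mouse as the sample type on a rat array. Arrays of days 1 and 3 differed at more genes than a 20 h array and its same-day control: 296 genes were at least 2-fold lower and 61 at least 2-fold higher on untreated replicate 3 than on untreated replicate 1, against 87 and 97 between 20 h replicate 1 and its same-day control and 49 and 37 between 20 h replicate 2 and its own. Untreated replicates 1 and 2 differed at 48 and 40. Results are therefore given by array.

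**Figure D1:**
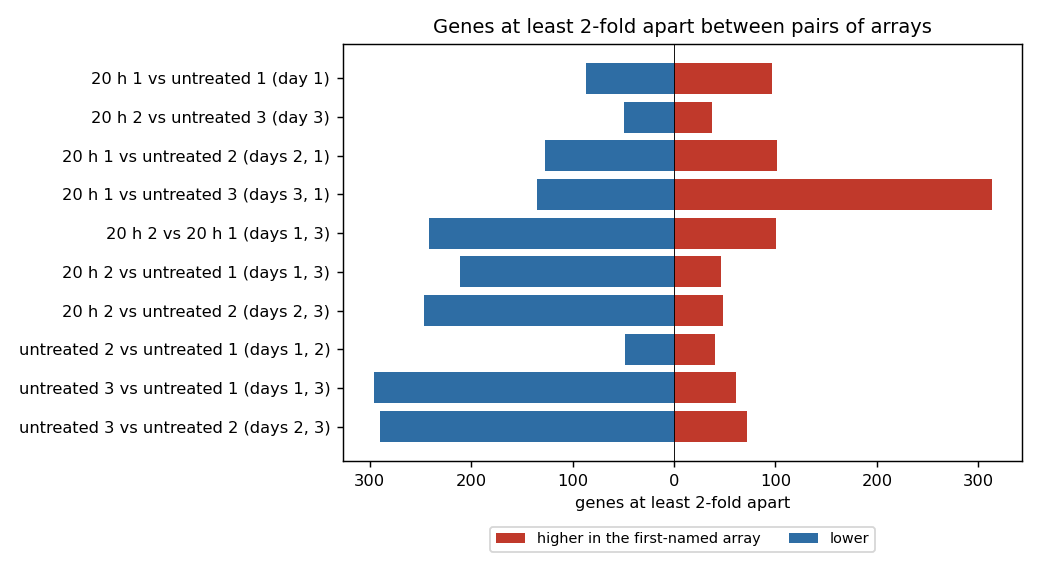
Each bar counts genes at least 2-fold apart between 2 arrays, on log2(signal + 15) where either array has a signal of 100 or more, with higher genes to the right and lower genes to the left of 0. The same-day pairs have 97 and 87 genes (20 h replicate 1) and 37 and 49 genes (20 h replicate 2), while the untreated arrays of days 1 and 3 differ at 61 and 296.

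Over both 20 h arrays and all 3 untreated arrays, no probe set passed the test. Limma's test across 20857 probe sets called 0 (0.00%) at an adjusted p under 0.05, with 0.531 as the lowest. Without adjustment, 648 had a p under 0.05, of which 160 (0.767%) were higher and 488 (2.34%) lower at 20 h. That split depended on the scaling: quantile normalization gave 293 higher and 279 lower, and scaling to one 75th percentile gave 224 and 372. The total was 1672 without untreated replicate 3, 383 without untreated replicate 2, 1105 without 20 h replicate 1 and 1095 without 20 h replicate 2. When 20 h replicate 2 was left out, so that the lone 20 h array was assumed to vary like the other groups, 8 probe sets passed: those of Hsd3b1, Il33, Slc14a2 and Bnip3, 2 of Fgl2 and 2 with no gene name. Without any other single array, 0 passed. Taken gene by gene, with 1 probe set for each of 11552 genes, both 20 h arrays lay above all 3 untreated arrays at 611 genes (5.29%) and below all of them at 1178 (10.2%). With quantile normalization these counts were 815 and 812, and with scaling to one 75th percentile 807 and 856. The median log2 fold change was -0.03 over all genes, with 5074 genes higher and 6478 lower in mean.

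The 20 h arrays differed from their same-day controls at largely separate genes. On 20 h replicate 1, 97 of 8696 genes (1.12%) were at least 2-fold higher and 87 (1.00%) at least 2-fold lower than on untreated replicate 1, taking genes with a signal of at least 100 on either of these arrays. On 20 h replicate 2, 37 of 8300 (0.446%) were higher and 49 (0.590%) lower than on untreated replicate 3. Scaling to one 75th percentile moved the counts of 20 h replicate 1 to 111 and 69 and those of 20 h replicate 2 to 36 and 51. Of the 97 higher genes of 20 h replicate 1, 89 also lay above all 3 untreated arrays. On 20 h replicate 2 the same 97 genes had a median same-day difference of -0.08 (log2): 20 of them lay above the untreated range, 52 within it and 25 below it. The 87 lower genes had a median of -0.01 on 20 h replicate 2, with 31 below the untreated range, 45 within it and 11 above it. Across all 11552 genes the same-day differences of both arrays had a Pearson correlation of 0.016, given as a description, with SDs of 0.407 and 0.417; these differences share no array. At 4-fold, 20 h replicate 1 had 26 genes higher and 3 lower, and 20 h replicate 2 had 9 and 5. In opposite directions at 2-fold, 5 genes were higher on 20 h replicate 1 and lower on 20 h replicate 2 and 3 the reverse. No gene was 2-fold higher on both days and 1 was 2-fold lower on both, RGD1309362, a gene with no role given here, which gave 107.5, 50.9 and 104.7 on the untreated arrays and 26.3 and 23.9 at 20 h; it is named after its values were seen.

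**Figure D2:**
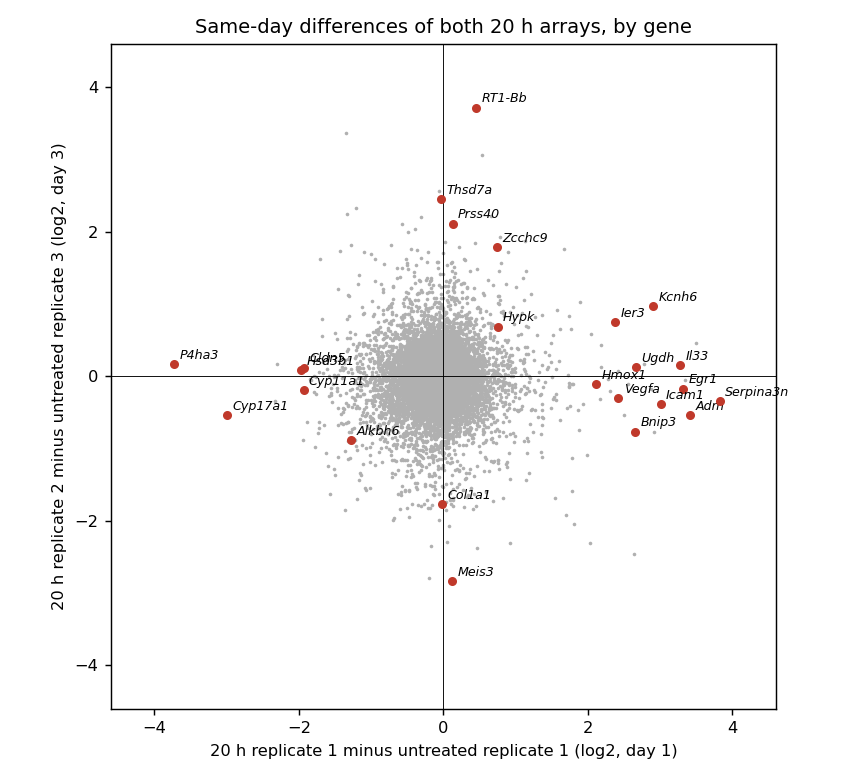
Each point is 1 of 11552 genes, with the same-day log2 difference of 20 h replicate 1 on the horizontal axis and of 20 h replicate 2 on the vertical axis; labelled genes are in red. The largest differences lie along one axis or the other, such as Serpina3n at 3.82 and -0.35 and RT1-Bb at 0.45 and 3.72, and Ier3, at 2.38 and 0.75, is among the few far from 0 on both.

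Some genes differed the same way on both days: at least 1.5-fold, with both 20 h arrays outside the range of the 3 untreated arrays and a mean signal of 100 or more in the higher group. Of 8495 genes bright enough, 11 (0.129%) met this on the higher side and 22 (0.259%) on the lower side. These came to 15 and 16 after scaling to one 75th percentile and to 16 and 13 after quantile normalization, so the excess of lower genes depended on the scaling. At 1.5-fold alone, without the condition on the untreated range, 16 genes were higher on both days and 24 lower on both, while 17 were higher on 20 h replicate 1 and lower on 20 h replicate 2 and 21 the reverse. Opposite directions were thus about as frequent as the same direction. Ier3, an early response gene that acts on cell survival, gave 77.4, 55.9 and 87.4 untreated and 465.8 and 156.8 at 20 h. Its ratio to the same-day control was 6.02 and 1.79. That both 20 h arrays lay outside the untreated range was fixed by the selection, for Ier3 and for the other genes named from this set. Hypk, which works with the N-terminal acetylation machinery at the ribosome, gave 919.9, 979.2 and 1035.4 untreated and 1557.9 and 1678.8 at 20 h. The same-day ratios of Hypk were 1.69 and 1.62, so both 20 h arrays stood at almost the same distance. Vmp1, an endoplasmic reticulum protein needed to form autophagosomes, gave 257.9, 266.4 and 240.6 untreated and 411.2 and 373.7 at 20 h, with ratios of 1.59 and 1.55. Zcchc9, a zinc knuckle protein, gave 200.3, 231.1 and 131.7 untreated and 346.2 and 490.7 at 20 h, here with the larger ratio on 20 h replicate 2.

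Cd163, the macrophage receptor for haemoglobin bound to haptoglobin, gave 52.3, 37.4 and 42.2 untreated and 137.3 and 77.2 at 20 h. Cebpd, a transcription factor of the acute phase response, gave 58.4, 55.2 and 32.3 untreated and 234.8 and 59.3 at 20 h; its value on 20 h replicate 2 exceeded the highest untreated array by little. Both Cd163 and Cebpd were further from the controls on 20 h replicate 1. Their place above the untreated range on both 20 h arrays was a condition of the selection. In whole tissue, a different number of cells of a type and a different amount of RNA per cell cannot be told apart, for a higher or a lower signal.

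Kcnh6, a voltage-gated potassium channel, gave 19.2, 41.8 and 51.7 untreated and 241.8 and 115.4 at 20 h. Slc66a1, a lysosomal exporter of basic amino acids, gave 45.2, 76.3 and 49.7 untreated and 98.8 and 104.5 at 20 h. Mapre2, a protein of growing microtubule ends, gave 91.1, 108.6 and 48.5 untreated and 166.7 and 111.8 at 20 h. For these 3 the untreated arrays were themselves spread widely. Dipk2a gave 167.9, 130.8 and 112.7 untreated and 387.5 and 191.6 at 20 h, but its other probe set gave same-day differences of 0.84 and -1.18. RT1-CE12, a class I histocompatibility gene with near-identical copies, gave 771.8, 758.8 and 219.8 untreated and 1227.4 and 1073.9 at 20 h, with untreated replicate 3 as the low array.

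On the lower side, Alkbh6, of the AlkB family of oxygenases, had the lowest unadjusted p of the fit among genes. It gave 350.7, 277.4 and 322.4 untreated and 135.8 and 167.6 at 20 h; the log2 fold change was -0.99 ± 0.19 (SE) with an adjusted p of 0.999 by limma. That both 20 h arrays lay below every untreated array was again fixed by the selection. Zfp11, a zinc finger protein, gave 177.6, 162.4 and 154.1 untreated and 87.1 and 90.4 at 20 h. Nsg1, a protein of neuronal endosomes, gave 295.9, 248.7 and 350.7 untreated and 161.9 and 185.2 at 20 h. For Zfp11 and Nsg1 both 20 h arrays were close to each other. Ramp2, the partner that turns a calcitonin-type receptor into a receptor for adrenomedullin, gave 149.8, 87.9 and 153 untreated and 52.7 and 83.5 at 20 h. Col15a1, a basement membrane collagen, gave 84.7, 92 and 144.1 untreated and 47.9 and 47.3 at 20 h. Ramp2 and Col15a1 are both known from vessel walls. The 12 lower genes with the largest smaller difference also held Begain, C14h5orf52, Tmem62, Rrp1b, Rnf145, Nacc2 and Fam210a, with same-day differences from -0.70 to -0.99 on 20 h replicate 1 and from -0.74 to -1.16 on 20 h replicate 2. Of these, other probe sets of Rrp1b and of Fam210a gave a mean difference of the opposite sign.

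Genes with the lowest unadjusted p and the same sign on both days gave the following fold changes, none of which passed (adjusted p = 0.999 by limma for each). Ier3 had a log2 fold change of 1.72 ± 0.39 (SE), Zcchc9 of 1.11 ± 0.26 (SE), Hypk of 0.72 ± 0.19 (SE) and Vmp1 of 0.59 ± 0.16 (SE). Eno2, the neuronal enolase of glycolysis, had 1.40 ± 0.35 (SE), from 17.4, 21.7 and 18.2 untreated and 105 and 52.6 at 20 h. Bbs12, a chaperonin-like protein of the Bardet-Biedl syndrome complex, had 0.60 ± 0.16 (SE), from 206.5, 203.1 and 207.3 untreated and 341.3 and 300.7 at 20 h. The untreated arrays of Bbs12 were tightly grouped and both 20 h arrays stood clear of them, which a choice by lowest p favours. Ephb6, an Eph receptor without kinase activity, had -0.91 ± 0.21 (SE), from 196.9, 170.2 and 144.7 untreated and 79.9 and 86.8 at 20 h. Sertad4 had -1.09 ± 0.26 (SE), from 87.4, 87.5 and 82.9 untreated and 29.5 and 35.2 at 20 h. B4galt6, which makes lactosylceramide, had -0.90 ± 0.22 (SE), from 167.7, 186.9 and 149.9 untreated and 68.4 and 99.4 at 20 h. All 3 were lower on both 20 h arrays than on any untreated array, which the same choice favours. Zfp11 had -0.79 ± 0.20 (SE), and LOC102550392, an uncharacterized gene, had -1.52 ± 0.37 (SE), from 125.3, 83.4 and 82.3 untreated and 39.7 and 12 at 20 h.

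**Figure D3:**
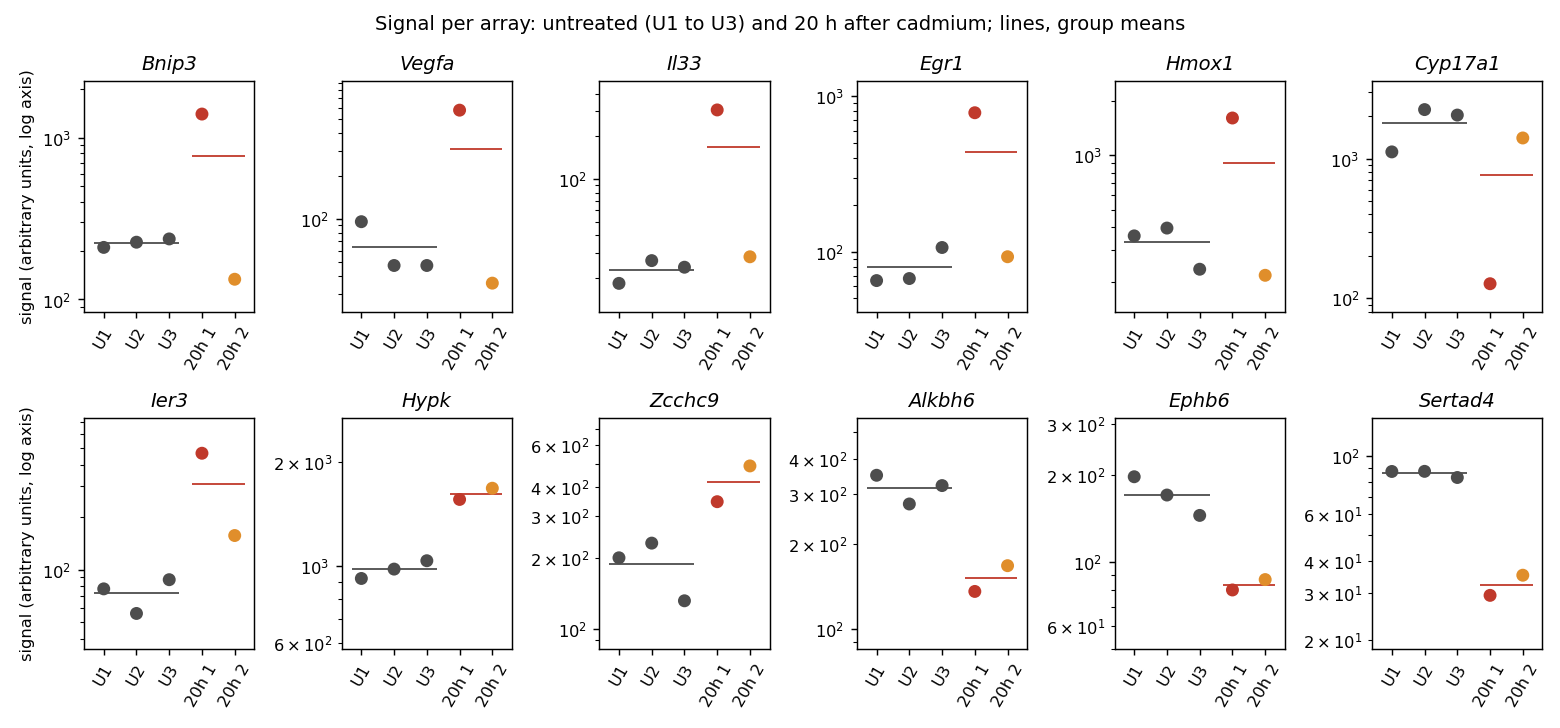
Each panel shows 1 gene, with the signal of the 3 untreated arrays (U1 to U3) and both 20 h arrays on a log axis and lines at the group means. In the upper row 20 h replicate 1 stands apart from the other 4 arrays, as for Bnip3 at 1400.3. In the lower row both 20 h arrays lie on one side of the untreated ones, as for Hypk at 1557.9 and 1678.8. The genes of the lower row were picked by rules that require or favour this. Those of the upper row were chosen with earlier results of these data known. Of them, Il33, Egr1 and Hmox1 also met the rule for a difference on 20 h replicate 1 alone, which favours their pattern.

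Genes were also grouped in 27 lists by function or cell type, and no member of any list passed the test. Each list is read against all genes, for which the median log2 fold change and the same-day medians of 20 h replicates 1 and 2 were -0.03, -0.03 and -0.02. Genes that bind and move metals were close to the controls. Of 16 genes listed for metallothioneins and metal transport, 14 were kept by the filter on low signals; 6 were higher and 8 lower in mean at 20 h; the median fold change (log2) was -0.05 (0.04 with quantile normalization), with same-day medians of 0.05 and 0.09. Mt2A, a metallothionein of most tissues, gave 4204.8, 4593.2 and 3717.1 untreated and 5589.3 and 3949 at 20 h; the log2 fold change was 0.18 ± 0.17 (SE) and turned to -0.07 without 20 h replicate 1. Mt1, whose promoter is shown with Mt2A's, gave 109.3, 110 and 54.9 untreated and 128.8 and 81.1 at 20 h. Both groups overlapped for both genes. Mt3 gave 1147, 1223.6 and 1456.8 untreated and 1473.1 and 1639.4 at 20 h. It was the 1 member of 14 with both 20 h arrays above the untreated range (0 lay below it). Of all genes, 5.29% lay above and 10.2% below. Slc30a1, the zinc exporter that Mtf1 controls, gave 123.2, 108 and 34 untreated and 129.3 and 38 at 20 h, high on the arrays of day 1 and low on those of day 3 in both groups. Slc39a8, a zinc importer that also carries cadmium, gave 260.7, 312.7 and 222.2 untreated and 90.6 and 237.7 at 20 h, so that only 20 h replicate 1 was low. The other 9 members had same-day differences from -0.38 to 0.43 on 20 h replicate 1 and from -0.51 to 0.16 on 20 h replicate 2.

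Genes of hypoxia and glycolysis were higher on 20 h replicate 1 and not on 20 h replicate 2. Of 29 measured members of 34, 28 had a positive same-day difference on 20 h replicate 1, against 5243 of 11552 genes, and 11 on 20 h replicate 2, against 5498. The same-day medians were 0.57 and -0.06; over both arrays the median was 0.14, or -0.04 without 20 h replicate 1 and 0.47 without 20 h replicate 2. Bnip3 gave 209.9, 226 and 236.8 untreated and 1400.3 and 133.4 at 20 h, 6.67 times its control on day 1 and 0.563 times on day 3. Its log2 fold change of 0.94 ± 0.72 (SE) did not pass. With a lone 20 h array it was 2.57 without 20 h replicate 2 and -0.69 without 20 h replicate 1. Vegfa, the vascular growth factor, gave 95.7, 47.2 and 47.2 untreated and 578.8 and 35.5 at 20 h. Adm, the peptide adrenomedullin that widens vessels, gave 16.5, 43.7 and 33.5 untreated and 322.3 and 18.4 at 20 h. For Bnip3, Vegfa and Adm, 20 h replicate 1 was far above every untreated array and 20 h replicate 2 was within or below the untreated range.

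Pgk1, a glycolytic kinase, gave 517.4, 542.8 and 682.9 untreated and 1024.2 and 391.9 at 20 h. P4ha2, a collagen prolyl hydroxylase, gave 452.6, 458.8 and 464.5 untreated and 913.9 and 393.2 at 20 h. Ndrg1, a stress-inducible gene of low oxygen, gave 488, 504 and 227.9 untreated and 1313.1 and 293.2 at 20 h. These had the same pattern at a smaller size, with untreated signals of Ndrg1 that differed by day. Slc2a1, the glucose transporter, gave 130.3, 148.3 and 104.1 untreated and 283.6 and 161.7 at 20 h. It was the 1 member of 29 with both 20 h arrays above the untreated range (0 lay below it), beside 5.29% and 10.2% of all genes. Eno2, given above, was higher on both arrays, from untreated signals near the offset, but belongs to no list here. Of the other glycolytic enzymes in the list, Ldha, lactate dehydrogenase, gave 6233.2, 5859.6 and 8097.4 untreated and 6595.4 and 8281.2 at 20 h. Eno1, an enolase, gave 5689.9, 5946.3 and 7206.3 untreated and 5712.1 and 6654.3 at 20 h. Hif1a itself gave 448.6, 751.8 and 505.1 untreated and 773.9 and 484.2 at 20 h.

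Immediate early genes, which are transcribed within minutes of a stress signal, split in the same way between the arrays. Of 26 measured members of 32, 19 had a positive same-day difference on 20 h replicate 1 and 11 had one on 20 h replicate 2, with medians of 0.46 and -0.05 and 0.19 over both arrays (-0.03 without 20 h replicate 1). Of all 11552 genes, 5243 and 5498 were positive. Fos and Atf3, both in this list, were dim on the untreated arrays and were kept through cadmium arrays. With no filter the median over both arrays was 0.29. At least 2-fold higher were 7 members and 1 member on the respective arrays, beside 1.12% and 0.446% of all genes. Egr1, a zinc finger factor of growth and stress signals, gave 65.1, 67.1 and 106.3 untreated and 783.9 and 92.7 at 20 h. Its log2 fold change of 1.66 ± 0.73 (SE) did not pass. Fos, which pairs with Jun in the AP-1 dimer, gave 7.5, 2.5 and 19.3 untreated and 150.2 and 15.3 at 20 h, and Jun gave 157.2, 143.5 and 117.5 untreated and 439.7 and 110 at 20 h. Junb, another AP-1 subunit, gave 74.6, 91.2 and 66.1 untreated and 340.6 and 23 at 20 h, so that the 20 h arrays lay on opposite sides of the untreated range. Zfp36, which speeds decay of cytokine messengers, was 5.33 times its control on 20 h replicate 1 and 0.97 times on 20 h replicate 2. Dusp1, a phosphatase that switches off stress kinases, gave 173.2, 125.9 and 70.9 untreated and 259.3 and 176.8 at 20 h, with same-day differences of 0.54 and 1.16. Both 20 h arrays of Dusp1 exceeded their own controls, and the earlier day had the brighter arrays.

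**Figure D4:**
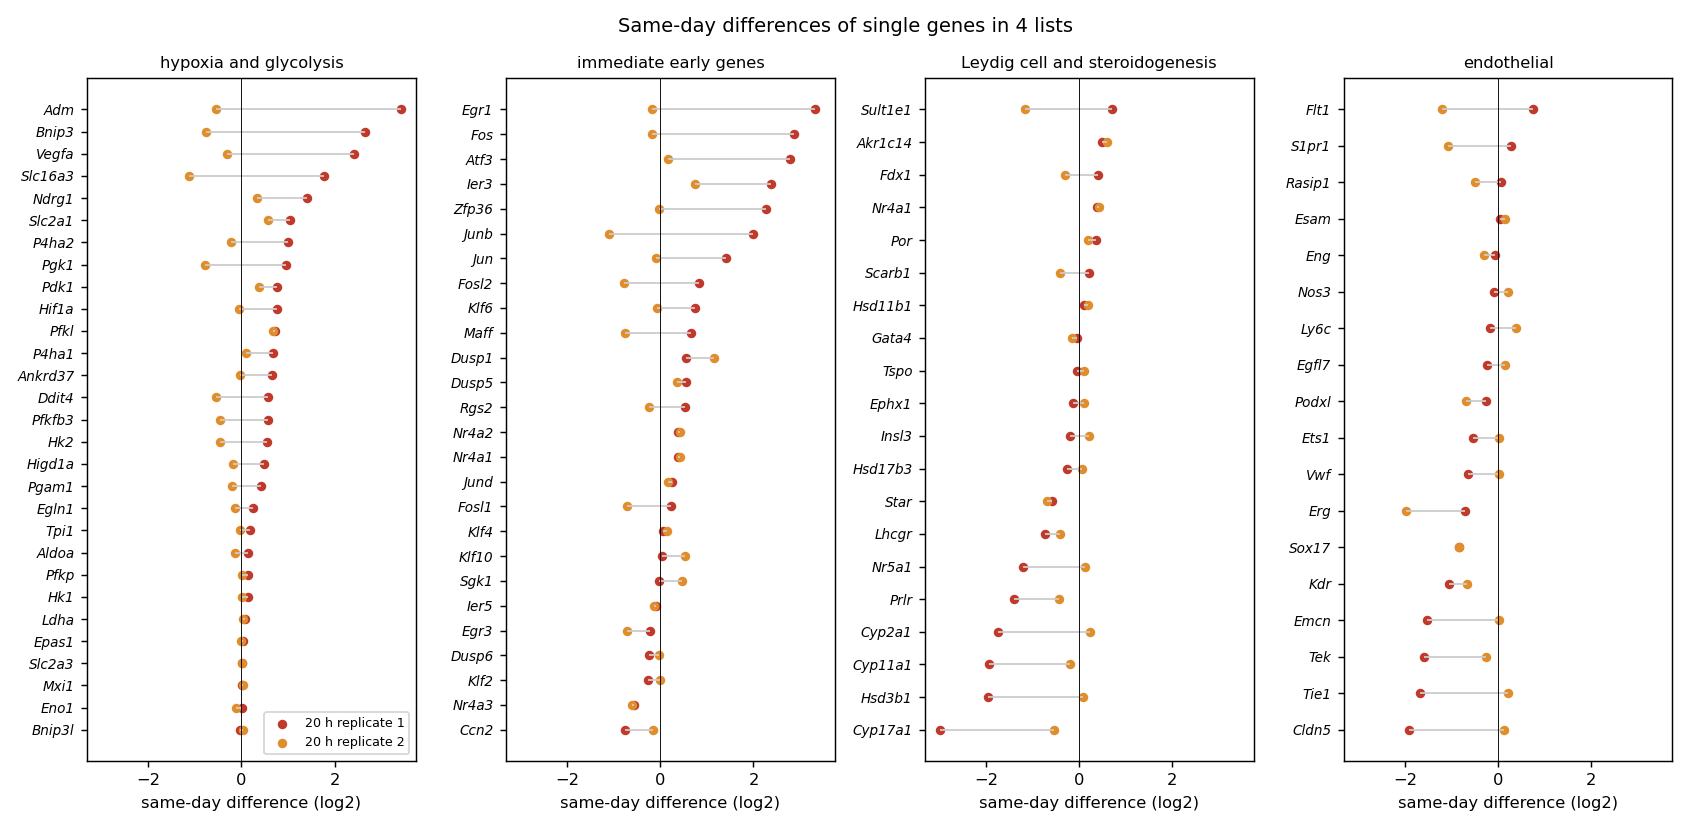
Each row is a measured gene of 1 of 4 lists, with its same-day log2 difference on 20 h replicate 1 (red) and 20 h replicate 2 (orange). On 20 h replicate 1, hypoxia and immediate early genes reach 3.42 (Adm) and 3.32 (Egr1), and Leydig and endothelial genes reach -2.99 (Cyp17a1) and -1.92 (Cldn5). Most orange points lie nearer 0, but the endothelial gene Erg reaches -1.98 on 20 h replicate 2.

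Other stress genes were 2-fold higher in few members, and on 20 h replicate 1 only. The unfolded protein and integrated stress response (20 of 22 measured) had same-day medians of 0.09 and 0.00 and 0.04 over both arrays, with 3 members 2-fold higher on 20 h replicate 1, and 1 member above and 1 below the untreated range on both arrays. Atf4, the factor made when translation is curbed, gave 460.9, 468.4 and 512.5 untreated and 1115.9 and 449.8 at 20 h. Its target Atf3 gave 6, 5 and 1.9 untreated and 129.1 and 4 at 20 h, and Ppp1r15a, which restarts translation, gave 92.7, 111.2 and 90.6 untreated and 339.8 and 92.1 at 20 h. These 3 are linked as steps of one pathway, and on 20 h replicate 2 they stood at their controls. Ddit3, a factor of the same pathway that promotes cell death, gave 900.1, 787.6 and 1052.7 untreated and 1144.4 and 935.6 at 20 h, and Hspa5, the main chaperone of the endoplasmic reticulum, gave 4518.5, 4150 and 6090.7 untreated and 5190.6 and 6641.8 at 20 h. Heat shock proteins and chaperones (16 of 19) had medians of 0.04, -0.12 and 0.02, and 0 were 2-fold apart on either day. Hspa1a, the inducible Hsp70, gave 175.4, 160 and 201.4 untreated and 284.1 and 148.6 at 20 h, and Hspb1, a small heat shock protein, gave 419.5, 704.2 and 459.2 untreated and 602.5 and 388 at 20 h. Hspa1a was above the untreated range on 20 h replicate 1 and under it on 20 h replicate 2, and Hspb1 was within it and under it. Nrf2 and antioxidant genes (22 of 24) had medians of 0.12, 0.02 and 0.10, with 4 members above (Osgin1, Gclm, Nfe2l2 and Gstp1) and 1 below (Mafg) the untreated range on both 20 h arrays, as were 5.29% and 10.2% of all genes. Hmox1, the haem-degrading enzyme that cadmium is known to induce, gave 358.5, 396 and 234.6 untreated and 1604.7 and 217.2 at 20 h, and its log2 fold change of 0.86 ± 0.68 (SE) became -0.54 without 20 h replicate 1. Slc7a11, the cystine importer, gave 194.8, 322.8 and 240.1 untreated and 748.6 and 170.1 at 20 h. Gstp1, a glutathione transferase, gave 673, 647.4 and 572.8 untreated and 863.2 and 753.7 at 20 h, a small difference present on both days. Nqo1, another target of Nrf2, gave 136.2, 118.7 and 201 untreated and 177.8 and 152 at 20 h, and Gclm, a subunit of the enzyme that makes glutathione, gave 715.8, 615.8 and 700.7 untreated and 778.9 and 724.1 at 20 h.

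Of measured acute phase and alarmin genes, which signal tissue damage, 12 of 15 had a positive same-day difference on 20 h replicate 1. Of measured cytokine genes, 13 of 18 did, against 5243 of 11552 genes. On 20 h replicate 2, 5 of 15 and 5 of 18 did, against 5498. The acute phase list (15 of 25) had same-day medians of 0.61 and -0.20, and 0.38 over both arrays (0.13 without 20 h replicate 1 and 0.10 with no filter). The filter on low signals counted cadmium arrays too, so members high there were more easily kept. Serpina3n and Il33 were dim on the untreated arrays, and the same-day medians of both lists were not taken without the filter. Serpina3n, a protease inhibitor of the acute phase, gave 14.2, 21.5 and 35 untreated and 398.1 and 24.3 at 20 h. Il33, an alarmin released by dying cells, gave 18.3, 26.5 and 23.8 untreated and 307.3 and 28.2 at 20 h. Its log2 fold change was 1.65 ± 0.67 (SE), and 3.10 without 20 h replicate 2, on a lone 20 h array. Fgl2, a fibrinogen-like protein that can generate thrombin, gave 241.8, 217.2 and 358.8 untreated and 1252 and 310.7 at 20 h, and its 3 other probe sets gave same-day differences of 2.06 to 2.33 on 20 h replicate 1 and -0.22 to 0.28 on 20 h replicate 2. Only 20 h replicate 1 was high for all of these. Timp1, an inhibitor of matrix proteases, gave 323.3, 428.4 and 654.2 untreated and 1113.9 and 611.5 at 20 h. Cytokines, chemokines and NF-kB targets (18 of 33) had same-day medians of 0.40 and -0.38 and -0.07 over both arrays, the sign differing between the arrays; the last value was 0.04 with quantile normalization and 0.27 with no filter. Icam1, an adhesion molecule for leukocytes, gave 26.5, 45 and 59.8 untreated and 318.5 and 42.2 at 20 h. Il1a, a cytokine of tissue damage, gave 86.8, 86.5 and 60.2 untreated and 263.5 and 67.5 at 20 h, while its other probe set lay above the untreated range on both arrays (83.7, 79.3 and 48 untreated and 290.1 and 91.6 at 20 h). Tnfaip3, a brake on NF-kB, gave 66.5, 100.1 and 75.4 untreated and 214.4 and 52 at 20 h. Cxcl12, a chemokine made by stromal and vessel cells, went the other way with 324.9, 312.1 and 361.8 untreated and 140.6 and 334 at 20 h. Ccl2, the monocyte chemokine, did not pass the filter on low signals.

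Blood and leukocyte markers are given beside these lists, and their part in the differences was not tested. The summed signal of 10 red cell, platelet and plasma genes was 2768.6 to 4162.7 over the untreated arrays, 5119.9 on 20 h replicate 1 and 4530.3 on 20 h replicate 2. In these genes, same-day medians were 0.02 and 0.02. By mean, 7 of the 10 were lower than untreated and 3 higher, and over both arrays the median was -0.09. Hbb and Hp made up most of each sum. Hbb, a haemoglobin chain, gave 1038, 1958.1 and 1540.8 untreated and 2954 and 1764.9 at 20 h. Hp, haptoglobin, gave 729.9, 692.5 and 1518.7 untreated and 1224.2 and 1798.1 at 20 h. Ppbp, of the same list, gave 42, 41.1 and 75.4 untreated and 51.5 and 22 at 20 h. It was below the untreated range on 20 h replicate 2 only. Of 18 neutrophil and myeloid genes on the array, 8 passed the filter; their summed signal was 1218.2 to 1628.7 on untreated arrays, 1418.2 on 20 h replicate 1 and 1198 on 20 h replicate 2. In this set, same-day medians were -0.02 and -0.52. The summed signal of 15 macrophage genes was 6222.3 to 6498.5, 6822.8 and 6943.4, with same-day medians of 0.23 and -0.07. C1qc, a complement protein made by macrophages, gave 115.4, 90 and 118 untreated and 185 and 112.1 at 20 h, and Csf1r, the receptor of their growth factor, gave 127.5, 122.9 and 128.9 untreated and 80 and 110 at 20 h, so members of this list lay on both sides. Interferon, histocompatibility and STAT genes (27 of 31) had same-day medians of -0.02 and -0.15, with 3 members above and 6 below the untreated range on both 20 h arrays, beside 5.29% and 10.2% of all genes. Irf1, a factor induced by interferon, gave 74.2, 85.4 and 68.9 untreated and 184.3 and 96.5 at 20 h, and Stat3, the factor of interleukin-6 signals, gave 163, 157.4 and 139 untreated and 384.1 and 123.1 at 20 h. RT1-Bb, a class II histocompatibility gene, gave 881.3, 707.4 and 86.9 untreated and 1210.1 and 1323.6 at 20 h, whereas its other probe set gave 761.1, 716.5 and 9.4 on the untreated arrays and 37 and 12.7 at 20 h.

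Endothelial markers were lower in mean at 20 h in 17 of 18 measured members of 27, against 6478 of 11552 genes. By same-day difference, 14 members were lower and 4 higher on 20 h replicate 1. On 20 h replicate 2 they split evenly, with 9 lower and 9 higher. The median was -0.34 over both arrays, with same-day medians of -0.40 on 20 h replicate 1 and -0.13 on 20 h replicate 2; without 20 h replicate 1 it was -0.23, with quantile normalization -0.19 and with an offset of 50 -0.22. Both 20 h arrays lay below the untreated range for 4 members, namely Erg, Kdr, Tek and Sox17, and above it for 0; of all genes 10.2% lay below and 5.29% above. The summed signal was 1560.6 to 1633.9 on the untreated arrays, 1162.4 on 20 h replicate 1 and 1252 on 20 h replicate 2. Kdr, the main receptor for Vegfa, gave 51.8, 59.5 and 55.7 untreated and 17 and 29.4 at 20 h. Sox17, a factor of arterial endothelium, gave 43.1, 42.8 and 53 untreated and 17.3 and 23 at 20 h, and Erg, a factor that keeps endothelial identity, gave 41.3, 38 and 69.2 untreated and 19.6 and 6.3 at 20 h. These signals lie near or under the median of an array. Cldn5, the claudin of endothelial junctions gave 241.2, 241.4 and 231.9 untreated and 52.5 and 252.9 at 20 h: the 4 other arrays were nearly equal and 20 h replicate 1 alone was low. Tie1 and Tek, receptors that steady vessel walls, gave 8.8 and 20.5 on 20 h replicate 1, against 32.2 to 60.8 and 86.9 to 101.5 on untreated arrays and 39.4 and 81.6 on 20 h replicate 2. Emcn, an endothelial sialomucin, gave 67.5, 66.3 and 51.3 untreated and 13.8 and 52.1 at 20 h. Flt1, the decoy receptor for Vegfa, gave 76.6, 104.7 and 148.1 untreated and 139.5 and 56.2 at 20 h, and S1pr1, the sphingosine phosphate receptor, gave 86.1, 74.6 and 100 untreated and 106.7 and 39.6 at 20 h, both low on 20 h replicate 2 instead. Pecam1 did not pass the filter, and Cdh5 has no probe set named with it alone here.

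Leydig cells make testosterone from cholesterol, and 5 of 20 measured genes of 25 in this list were at least 2-fold lower on 20 h replicate 1 and 0 on 20 h replicate 2, where 1.00% and 0.590% of all genes with a signal of 100 or more were. The same-day medians were -0.16 and 0.07; over both arrays the median was -0.17 (0.01 without 20 h replicate 1). The summed signal was 12784.5 to 16429.6 on the untreated arrays, 9661.4 on 20 h replicate 1 and 15472.6 on 20 h replicate 2. Along the pathway, Star, which brings cholesterol into mitochondria, gave 476.5, 561 and 951.5 untreated and 312.9 and 584.9 at 20 h. The other probe set of Star gave 469.7, 506.7 and 612.9 untreated and 460.7 and 351.8 at 20 h. It lay below the untreated range on both 20 h arrays, with same-day differences of -0.03 and -0.78. Cyp11a1, which cuts the side chain of cholesterol, gave 878.3, 893 and 1102.2 untreated and 218.7 and 964.9 at 20 h. Hsd3b1, the next dehydrogenase, gave 1696.4, 1534.2 and 1753.3 untreated and 423.2 and 1862.7 at 20 h. Cyp17a1, which forms the androgen precursor, gave 1116, 2239.5 and 2046.2 untreated and 127.4 and 1403.4 at 20 h. For the last 3 of these enzymes, 20 h replicate 1 was below every untreated array and 20 h replicate 2 was within the untreated range or above it. The log2 fold change of Hsd3b1 was -0.88 ± 0.46 (SE), and that of Cyp17a1 was -1.95 ± 0.80 (SE). With a lone 20 h array, Hsd3b1 had -1.93 without 20 h replicate 2 and 0.17 without 20 h replicate 1. Lhcgr, the receptor for luteinizing hormone, gave 347, 436.2 and 464.2 untreated and 201 and 345 at 20 h. By the chosen probe sets it was the 1 member of 20 with both 20 h arrays below the untreated range, and 0 lay above it. Of all genes, 10.2% lay below and 5.29% above. Nr5a1, the factor that drives steroid genes, gave 245.9, 212.1 and 143.9 untreated and 98.6 and 158.3 at 20 h. Insl3, given above, and Hsd11b1, which acts on corticosterone, were near their controls, Hsd11b1 with same-day differences of 0.11 and 0.20. Genes of cholesterol synthesis and uptake (21 of 26) had same-day medians of 0.07 and -0.07. Idi1, an isoprenoid enzyme, gave 889.2, 859.3 and 907.9 untreated and 1133 and 1194.5 at 20 h, and Dhcr7, the last enzyme of the pathway, gave 232, 230.9 and 293.8 untreated and 117.6 and 237.5 at 20 h.

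**Figure D5:**
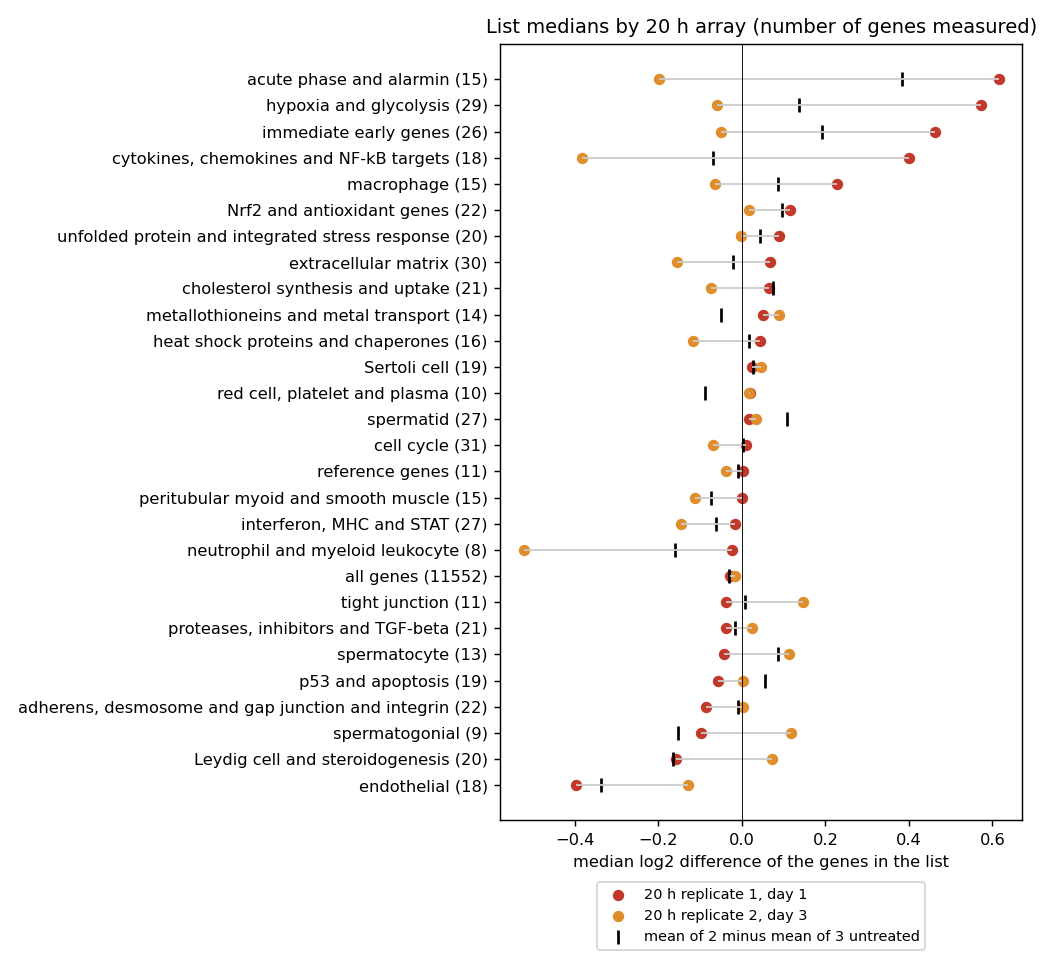
For each list, with the number of measured genes in brackets, points give the median same-day log2 difference on 20 h replicate 1 (red) and 20 h replicate 2 (orange), and a black bar gives the median over both 20 h arrays against all 3 untreated arrays. The longest spans are those of acute phase genes (0.61 and -0.20), cytokines (0.40 and -0.38) and hypoxia genes (0.57 and -0.06), and all genes lie at -0.03 and -0.02.

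By list median, Sertoli cell and barrier genes were close to their controls on both days, while some members, Gja1 among them, were not. The 19 measured Sertoli genes of 30 had same-day medians of 0.02 and 0.04, and 0 were 2-fold apart on either day. Inha, a subunit of the hormone inhibin, gave 486.8, 639.1 and 484.9 untreated and 495.1 and 545.1 at 20 h. The 11 tight junction genes of 18 had medians of -0.04 and 0.15. Ocln gave 122, 117.3 and 82.3 untreated and 118.1 and 82.5 at 20 h, and Tjp1, the scaffold beneath the strands, gave 912.6, 964 and 1055.7 untreated and 947.6 and 1023.3 at 20 h. The other probe set of Tjp1 had same-day differences of -0.09 and 0.48, and that of Cldn11 had -0.35 and 0.10. Jam3, another tight junction member, had 0.70 and 0.55, with 20 h replicate 2 within the untreated range. Ocln thus followed the day of the array, and Cldn5 was the 1 member 2-fold lower. Adherens, desmosome, gap junction and integrin genes (22 of 27) had medians of -0.09 and 0.00. Cdh2, the cadherin between Sertoli and germ cells, gave 115.2, 101.6 and 46.9 untreated and 88 and 47 at 20 h. The other probe set of Cdh2 had same-day differences of -0.67 and 0.85. Gja1, the gap junction protein of the barrier, gave 1412.3, 1276.5 and 1791.8 untreated and 832 and 1644.7 at 20 h, Gja4, a vessel connexin, gave 52, 63.8 and 46.6 untreated and 11.9 and 31.8 at 20 h, and Itgb1, an integrin subunit, gave 275.6, 380.8 and 416.6 untreated and 526.7 and 468.4 at 20 h. Gja4 was below and Itgb1 above the untreated range on both 20 h arrays. Proteases, inhibitors and TGF-beta genes (21 of 25) had medians of -0.04 and 0.02. Tgfb3, a cytokine that loosens the barrier, gave 156.7, 139.9 and 109.6 untreated and 119.2 and 144.6 at 20 h, and A2m, a protease trap made by Sertoli cells, gave 405.9, 414.9 and 475.6 untreated and 419.3 and 413.3 at 20 h. Adamts1, a matrix protease, was higher on 20 h replicate 1, with 39, 38.1 and 18.2 untreated and 136.1 and 30.6 at 20 h.

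Extracellular matrix genes had 7 of 30 measured members (of 35) with both 20 h arrays below the untreated range and 1 above it, where 10.2% and 5.29% of all genes did so. Their same-day medians were 0.07 and -0.16. Eln, elastin of vessel walls, gave 69, 72.4 and 75.5 untreated and 30.6 and 34.8 at 20 h, Col5a1, a fibril collagen, gave 66.7, 69.5 and 123.5 untreated and 24 and 54.6 at 20 h, and Bgn, a matrix proteoglycan, gave 286.3, 231.3 and 277.8 untreated and 173.2 and 190.6 at 20 h. All 3 were lower on both days by similar amounts. Col1a1 and Col3a1, fibrillar collagens, gave 270.9, 314.1 and 736.6 and 391.6, 315.7 and 760.4 on untreated arrays, 268.4 and 307.1 on 20 h replicate 1 and 205.4 and 296.3 on 20 h replicate 2, so untreated replicate 3 was the array that stood apart. Lox, which cross-links collagen, gave 34.1, 37.2 and 63.7 untreated and 127.2 and 49.7 at 20 h. Peritubular myoid and smooth muscle genes (15 of 18) had medians of 0.00 and -0.11. Acta2, smooth muscle actin, gave 587.5, 737.5 and 439.9 untreated and 587.4 and 503.5 at 20 h, and Des, a muscle filament, gave 97.5, 57.1 and 89.4 untreated and 216.4 and 69.7 at 20 h, higher on 20 h replicate 1 only.

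Germ cell transcripts, which are abundant in testis, stayed near their same-day controls. The 27 measured spermatid genes of 39 had same-day medians of 0.02 and 0.03, with 0 at 2-fold either way. In mean, 25 of them were higher at 20 h, against 5074 of 11552 genes, with a median of 0.11. That median was 0.00 with quantile normalization, 0.34 without 20 h replicate 1 and -0.07 without 20 h replicate 2, so its direction was not stable. Their summed signal was 215379.9 to 304683.4 on the untreated arrays, 227336.4 on 20 h replicate 1 and 309883.8 on 20 h replicate 2, high on both arrays of day 3. Tnp1, the transition protein of spermatids, gave 14539.1, 12998.8 and 20923.3 untreated and 14392 and 20735.1 at 20 h. Spermatocyte genes (13 of 25) had medians of -0.04 and 0.11. Sycp3, of the synaptonemal complex of meiosis, gave 6094.2, 4370.1 and 5125.4 untreated and 5917.8 and 5964.1 at 20 h, and Sycp2, its partner, gave 1714.5, 1215.9 and 1081.3 untreated and 1747.2 and 1893.7 at 20 h, with both 20 h arrays just above the untreated range. Smc1b, a meiotic cohesin, gave 1654.7, 1827.2 and 1193.6 untreated and 1945.6 and 2135.8 at 20 h. Spermatogonial genes (9 of 20) had medians of -0.10 and 0.12. Kit, the receptor of differentiating spermatogonia, gave 91.4, 74.1 and 47.4 untreated and 43.5 and 33 at 20 h, and Id4, a factor of stem spermatogonia, gave 664.6, 655.8 and 654.1 untreated and 456.6 and 714.8 at 20 h. Kit was below the untreated range on both 20 h arrays, Id4 only on 20 h replicate 1.

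Among p53 and apoptosis genes (19 of 31, same-day medians -0.06 and 0.00), Gadd45a, a growth arrest gene, gave 142.2, 145.2 and 142.6 untreated and 329 and 193 at 20 h. Tnfrsf1a, the receptor for tumour necrosis factor, gave 95.4, 114.5 and 132.8 untreated and 283.9 and 143 at 20 h, and Mcl1, a short-lived survival factor, gave 497.1, 373.9 and 484.5 untreated and 999 and 507.3 at 20 h. Ccng1, a p53 target, gave 194.3, 184.8 and 189.7 untreated and 249.6 and 273.4 at 20 h. These 4 had both 20 h arrays above the untreated range, by little on 20 h replicate 2 except for Gadd45a and Ccng1. A further 3 members (Bcl2l11, Apaf1 and Bcl2) had both below it, where 5.29% of all genes lay above and 10.2% below. Bcl2l11, a killer protein of the Bcl2 family, gave 86.9, 91.9 and 83.1 untreated and 45.5 and 48.8 at 20 h, but another of its probe sets gave a mean difference of 0.33. Cell cycle genes (31 of 32) had medians of 0.01 and -0.07 and 0 members at 2-fold. Mki67, a marker of dividing cells, gave 1083.9, 1204 and 1212.9 untreated and 1090.7 and 1137.3 at 20 h, and Ccnd3, a cyclin of the start of the cycle, gave 125.7, 147.4 and 156.2 untreated and 68.8 and 137.2 at 20 h. Reference genes (11 of 17) had medians of 0.00 and -0.04, and their lowest and highest members on 20 h replicate 1 were Polr2a at -0.19 and Pgk1, which is also a hypoxia gene, at 0.96.

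Over all genes, listed or not, those at least 2-fold apart on 20 h replicate 1 and under 1.2-fold on 20 h replicate 2, with a signal of 200 or more, numbered 31 on the higher and 24 on the lower side; the reverse pattern had 13 and 6. Among the 20 named by size on 20 h replicate 1 are Egr1, Il33, Fgl2, Zfp36, Hmox1, Hsd3b1, Cyp11a1, Cldn5 and Slc39a8, already described with their lists. Of the others on the higher side, Ugdh, which makes the sugar of hyaluronan, gave 94.6, 155.4 and 100.2 untreated and 679.9 and 110.8 at 20 h. G0s2, an inhibitor of fat breakdown, gave 47.2, 71.5 and 72.5 untreated and 266 and 81 at 20 h, and Cnn3, an actin-binding calponin, gave 114, 137.7 and 121.7 untreated and 434.3 and 112.3 at 20 h. Cpne5, a calcium-dependent lipid-binding protein, gave 134.2, 142.4 and 106.3 untreated and 864.9 and 97.5 at 20 h. On the lower side, P4ha3, a collagen prolyl hydroxylase, gave 290.9, 269.5 and 137.1 untreated and 8.2 and 156 at 20 h, near the floor on 20 h replicate 1. Slc14a2, a urea transporter, gave 214.5, 221.7 and 223.7 untreated and 31.6 and 254.4 at 20 h, and Hao2, a peroxisomal oxidase, gave 2502.7, 2176 and 3634.3 untreated and 694.6 and 3500.8 at 20 h. Gucy1a1, a subunit of the nitric oxide receptor, gave 258, 205.4 and 215.5 untreated and 77.6 and 180.8 at 20 h; its other probe set was below the untreated range on both 20 h arrays, with same-day differences of -0.39 and -0.86. In each of these, 20 h replicate 1 lay outside the untreated range, which the choice by size of same-day difference favours. Pheta1 and Marcks were lower on 20 h replicate 1 as well, at 134.7 and 142.5 against 238.7 to 493.2 and 335.4 to 410.4, and another probe set of Marcks had a difference of 0.07 there. The other 2 probe sets of Pheta1 gave -1.45 and -1.39 on 20 h replicate 2 as well, where the chosen one gave -0.01. The other 3 probe sets of Slc14a2 gave -0.75, -0.06 and -1.87 on 20 h replicate 1. Sgcb gave 35.9, 378.5 and 515 untreated and 255.7 and 543 at 20 h, where untreated replicate 1 was the low array.

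By same-day difference on 20 h replicate 2 and not on 20 h replicate 1, Thsd7a, a thrombospondin-repeat protein, gave 84.2, 43.9 and 26.1 untreated and 81.7 and 209.7 at 20 h. Prss40, a testis serine protease, gave 1068.5, 407.1 and 400.5 untreated and 1170.9 and 1781.4 at 20 h; both 20 h arrays were above the untreated ones although the same-day difference was 0.13 on 20 h replicate 1. Meis3, a homeobox factor, gave 170.8, 134.8 and 257.3 untreated and 186.6 and 23.1 at 20 h, and was low on 20 h replicate 2 only. Pcdh9, Paqr9 and Brcc3-ps7 had same-day differences of 1.43, 1.24 and 1.70 on 20 h replicate 2, where the untreated arrays ranged over 81 to 211.7, 90.1 to 462.3 and 214.9 to 1020.7; 20 h replicate 2 lay within that range for Paqr9 (232.9) and Brcc3-ps7 (734.3). Retsat, a retinol saturase, gave 346.6, 765.1 and 1242.4 untreated and 288.8 and 423 at 20 h, and Ncr3 gave 77.7, 89.4 and 402.1 untreated and 71 and 146.3 at 20 h. For both, the same-day difference of 20 h replicate 2 was large (-1.52 and -1.37), but that array lay within the untreated range and 20 h replicate 1 lay under it. Etfbkmt gave 284.5, 90.7 and 288.9 untreated and 272.2 and 83.1 at 20 h, with untreated replicate 2 nearly as low as 20 h replicate 2.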

How the data were processed

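Testis RNA of 7 rats was measured on Affymetrix Rat230_2 arrays (untreated, n = 3; 8 h after cadmium, n = 2; 20 h after cadmium, n = 2). The deposited tables hold 1 intensity per probe set, a MAS 5.0 signal, per the submitters' processing notes, which also name GeneSpring 7.2 without its role. Each array has the same trimmed mean signal, as the deposited values show. Hybridization day, staining step and sample type come from the instrument files, per the file headers.

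From the 31099 probe sets, 57 controls were left out; 20826 of the other 31042 name 1 gene, 436 several and 9780 none in the platform's annotation, and 20758 matched a RefSeq gene. Signals were turned into log2(signal + 15), where 15 is the rounded 20th percentile, and 20857 probe sets that exceeded the 40th percentile on 2 arrays or more entered the fit. One limma fit (3.58.1, R 4.3.3; eBayes with trend) over the 3 groups gave 20 h minus untreated, with Benjamini-Hochberg adjustment over all kept probe sets. The fit was tested on simulated data. For genes, the probe set with the highest mean over all arrays, those at 8 h included, stands for 11552 genes. Promoters are RefSeq windows of GRCr8; no genome was used. Python 3.11.15, pandas 2.3.3 and matplotlib 3.10.9 did the rest. The number of arrays limits the precision.

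Named genes are the 12 higher and 12 lower genes of the same direction on both days with the largest smaller difference, the 10 highest and 10 lowest seen on 20 h replicate 1 alone and the 5 and 5 on 20 h replicate 2 alone, the 6 lowest p each way, the 3 largest fold changes of each list, and a fixed set of stress, metal, steroid, vessel, junction and germ cell genes. Of those, a selection is described. The comparison, genes and lists were chosen with earlier results of these data known.

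The labels do not say that equal replicate numbers mark a shared animal, litter or day, and the instrument days cross them, so the numbers were not used to pair arrays. Alternatives were 5 arrays only, other offsets and filters, quantile and 75th-percentile scaling, no trend, the day or the replicate number as a block, leaving out each array, and other fold and signal limits.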

Additional observations from a re-analysis of the deposited data

Results flagged for a closer look

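Itga6, an integrin subunit of cells on basement membranes, had 20 h arrays above and 8 h arrays below the untreated range. The log2 fold change at 20 h was 0.33. The untreated arrays gave 109.1 to 125.5, the 20 h arrays 154.6 and 150.8, and the 8 h arrays 84.1 and 83. The difference between the times was not tested. Other probe sets of Itga6 had mean differences at 20 h of -0.57, -0.12 and 0.41.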

How the results depend on the processing

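The 648 probe sets at an unadjusted p under 0.05 became 1202 with no filter and 355 with a filter at the 60th percentile. They became 1197 with the hybridization day as a block and 1919 under a replicate block, whose number the labels do not tie to a shared source. Deviations from the group means correlated at 0.313 for arrays numbered 1 and -0.198 for those numbered 2. Untreated replicate 3 and 20 h replicate 2, of one day, had 0.383. With 2 arrays at 20 h, their deviations are equal and opposite, so these values cannot decide a pairing. Leaving out single arrays gave 383 to 1672, and 0 to 8 at an adjusted p under 0.05, the 8 without 20 h replicate 2. With both 20 h arrays outside the untreated range there were 1020 to 2334 higher and 1682 to 3192 lower genes when single arrays were left out, a looser condition by construction, and 713 lower genes with the filter at the 60th percentile. Genes of the same direction on both days numbered 7 higher and 6 lower with an offset of 50, 16 higher and 13 lower with quantile normalization, 0 and 0 at 2-fold, 79 and 203 at 1.2-fold, and 6 and 5 at a mean signal of 200, against 11 and 22. An offset of 50 left 35 lower genes at 2-fold on 20 h replicate 1, and 21 higher and 22 lower on 20 h replicate 2; a signal of 200 left 64 higher and 40 lower on the first and 15 lower on the second. Over the single arrays left out, the log2 fold change ran from -1.93 to 0.17 for Hsd3b1, from -0.54 to 2.26 for Hmox1, from -0.69 to 2.57 for Bnip3 and from -0.073 to 0.43 for Mt2A; in each the sign turned without 20 h replicate 1, and the other end came without 20 h replicate 2. Where no construction is given, the cause was not tested. Among alternative values of counts and of the median, 81 stayed within 1.5 times or the spread and 34 moved. For single genes, only those with a fold change printed here were tried, some of them picked by lowest p. Of their alternative fold changes, 288 kept their direction and side of the threshold and 4 reversed. The rest were fits without 20 h replicate 2, with a lone array at 20 h. Of list medians, 371 stayed and 61 moved. Dim genes are limited by signal over background: the offset shrinks their differences.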

Other observations

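A few genes had large same-day differences while their untreated arrays differed widely among themselves. RGD1565959 gave 105.8, 397.4 and 648 untreated and 735.1 and 105.5 at 20 h, and Tgm1, a transglutaminase, gave 121.2, 332.8 and 491.5 untreated and 541.1 and 87 at 20 h. Chd1l, a chromatin remodeller, gave 188.5, 428.8 and 937.4 untreated and 696.2 and 216.7 at 20 h. In these 3, the same-day differences had opposite signs and both 20 h signals lay within or near the untreated range. LOC100910237 gave 3.3, 233.1 and 219.9 untreated and 171.6 and 211.5 at 20 h, where untreated replicate 1 was the low array. Nipsnap3b gave 65.3, 215.9 and 110.2 untreated and 887.5 and 156.8 at 20 h, and Hpx, the haem carrier hemopexin, gave 61.9, 48.2 and 89.7 untreated and 567.1 and 46.6 at 20 h, both high on 20 h replicate 1 alone. Slc27a2, a fatty acid transporter, gave 369.6, 67.7 and 91.1 untreated and 136.2 and 1079.3 at 20 h, and Slc27a4, of the same family, gave 133.6, 164.7 and 148.5 untreated and 114.9 and 8.7 at 20 h; on 20 h replicate 2 they lay on opposite sides of the untreated range. Apoa2, an apolipoprotein, gave 7.8, 26.1 and 5.7 untreated and 18.1 and 157.5 at 20 h.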
